A study of Macaca mulatta with 6 samples.

Results

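Respiratory complex I, the NADH:ubiquinone oxidoreductase of mitochondria, was followed through the genes of its nuclear-encoded subunits in the adrenal gland of rhesus macaques. Members were the genes whose symbol begins with NDUFA, NDUFB, NDUFC, NDUFS or NDUFV on probe sets that name 1 gene, without the NDUFAF assembly factors. Each gene was represented by its probe set of highest mean, which gave 29 genes among 11963 on the array. Of these, 28 encode proteins and 1, NDUFB2-AS1, is an antisense RNA gene that is no subunit. By mean level 26 of the 28 passed the filter and were tested among 7164 genes, and all results below are over these 26 unless stated.

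The series asked how gene expression in the primate adrenal varies over the day. Left adrenal glands came from 6 ovariectomized females kept on a cycle of 12 h light and 12 h darkness and fasted for 12 h before collection. They were collected at 3 AM and 7 AM (both animals 12 years old), 11 AM (10 years and 37 days), 3 PM (8 years and 106 days), 7 PM (7 years and 82 days) and 11 PM (8 years and 70 days), 1 animal and 1 array per clock time. No genotype or drug treatment is named in the labels, every animal lacked ovaries, and the sources used here do not say at what hour the lights came on. A difference between arrays is therefore also a difference between animals, and age and clock time cannot be told apart: a 24-h cosine fitted to age had an R2 of 0.947 and peaked at 6.23 h. RNA was measured on an Affymetrix human array, so changes were read within a probe set, and levels of different genes are not comparable. The level filter, the classes by mean intensity and the summed marker intensities set probe sets side by side and carry this limit. In whole tissue, a smaller share of cells of a type and less RNA per cell cannot be told apart.

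Complex I oxidises NADH and passes the electrons to ubiquinone while moving protons across the inner mitochondrial membrane. Its N module binds and oxidises NADH, its Q module reduces ubiquinone, and its membrane arm, built around subunits encoded in mitochondrial DNA, carries the proton pumps. Steroid-making cells of the adrenal cortex are rich in mitochondria, which hold the enzyme that cuts the side chain of cholesterol. Of 37 nuclear subunits listed by module, the 28 measured were 8 of 10 in the N module, 4 of 6 in the Q module, 6 of 9 in the proximal membrane arm and 10 of 12 in the distal membrane arm. NDUFS5, NDUFS8 and NDUFC2 lay only on probe sets that name several genes, and the other listed subunits and those encoded in mitochondrial DNA were not analysed here.

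The arrays were alike, with pairwise correlations across probe sets from 0.916 to 0.928 and median intensities from 154.0 to 173.1. Spiked hybridisation controls were dimmest at 3 AM (geometric mean intensity 542) and 3 PM (669), while the remaining 4 arrays lay between 948 and 1101. For GAPDH, the signal at the 3' end over that at the 5' end, a sign of RNA integrity, ran from 0.721 to 1.16. Markers of the labelled tissue were present: all 10 cortex genes on the array, among them CYP11A1, CYP17A1 and STAR, and 11 of 13 chromaffin genes passed the level filter.

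The share of complex I subunit genes with a narrow range over the 6 arrays was near that of all genes tested. NDUFC1 had the widest fitted change of the 26. The highest array was less than 2-fold above the lowest in 19 of the 26 genes, a share of 73.1% against 72.4% of all genes tested. Only NDUFC1 passed an unadjusted p of 0.05 for a 24-h cosine, by limma's moderated F test. This is 1 of 26, or 3.85%, against 5.56% of all genes tested, so the count is near the background. After Benjamini-Hochberg adjustment over all genes, 0 members passed, as did 0% of all genes (0 of 7164 in limma, with 398 under the unadjusted threshold). The fitted peak was at least 1.5 times the trough in 5 members, or 19.2%, against 31.4% of all genes. The median log2 peak-to-trough difference was 0.30 over the members and 0.43 over all genes.

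**Figure D1:**
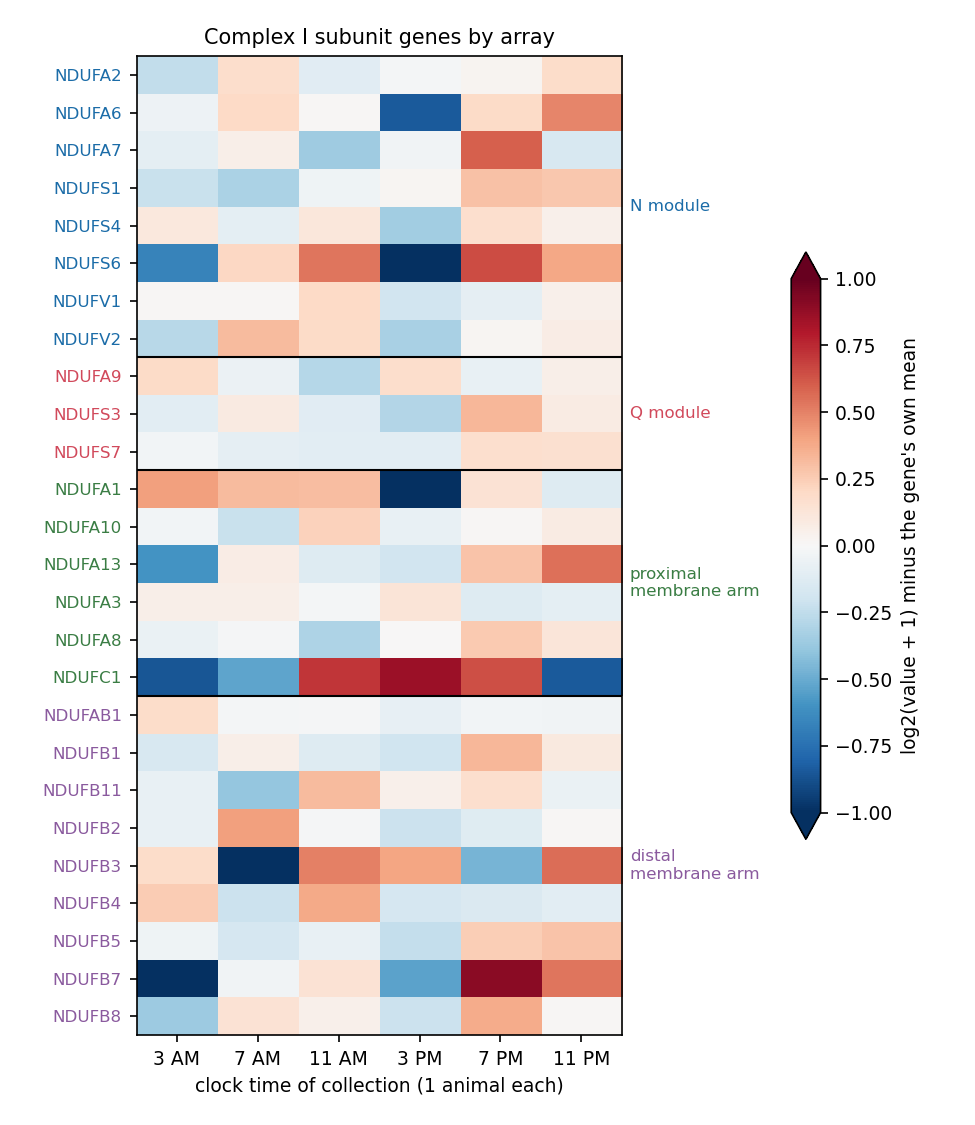
Each row is 1 of the 26 tested complex I genes, grouped by module, and each column 1 array, named by clock time; colour gives the log2(value + 1) minus the gene's own mean, and cells beyond 1 in either direction take the end colour. NDUFC1 is high on 3 neighbouring arrays (11 AM, 3 PM and 7 PM), the 7 PM and 11 PM columns are mostly above the mean (19 of 26 each), and 3 PM is mostly below it (7 of 26 above).

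NDUFC1 is a small accessory subunit of the proximal membrane arm. Its intensity was 86.5 at 3 AM, 109 at 7 AM, 259 at 11 AM, 286 at 3 PM, 247 at 7 PM and 87.7 at 11 PM. The arrays fell into a low level from 11 PM to 7 AM and a high level from 11 AM to 7 PM, with nothing between. A 24-h cosine had its peak at 14.6 h, at 4.17 times the trough, a log2 difference of 2.06 ± 0.31 (SE, n = 6) with an R2 of 0.945. The gene had rank 5 by p among the 7164, but its adjusted p was 0.836 by limma's moderated F test. An exact test over all 60 ways to order the arrays around the clock gave p = 0.0167, the smallest it can give. Because NDUFC1 was already known from earlier results of these data to have a small p, these p-values add no independent evidence of a rhythm.

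With 11 AM, 3 PM and 7 PM set against 11 PM, 3 AM and 7 AM, NDUFC1 was 2.79-fold higher, a log2 difference of 1.48 ± 0.19 (SE, n = 3 per group), and the groups did not overlap. The p was 3.12e-05 before and 0.223 after adjustment by limma. This split follows the low and high arrays of NDUFC1 already described, so its p adds no independent evidence. An exact test of 3 arrays against 3 cannot go below 0.1. Under this split 3.32% of all genes were higher at an unadjusted p under 0.05. Groups did not overlap in 2 members that were higher, NDUFC1 and NDUFB11, against 6.5% of all genes, and in 0 members that were lower, against 4.23%. NDUFB11, a distal subunit, reached 896 at 11 AM, 746 at 3 PM and 811 at 7 PM, and the rest lay between 550 and 689, a 1.28-fold difference (unadjusted p = 0.0969 by limma). When any 1 array was left out, the NDUFC1 cosine kept an unadjusted p under 0.05, with log2 peak-to-trough differences from 1.90 to 2.29. With age as a covariate the difference was 2.70 ± 1.08, with a peak at 15.7 h (unadjusted p = 0.00305 by limma), and a straight line on age had an R2 of 0.277. Because a cosine fitted to age had an R2 of 0.947, the fit with age cannot separate age from clock time.

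NDUFC1 was close to the limit of the level filter, a mean log2 value of 7.30, and had no second probe set that names it alone. The members just inside the filter were NDUFC1 and NDUFS6, both with a mean log2 value of 7.31. Just outside lay NDUFB6 at 7.13 and NDUFA5 at 6.85. NDUFB6, a distal subunit, ran from 113 at 7 PM to 164.5 at 11 AM, with 164.4 at 7 AM. NDUFA5, an accessory subunit of the Q module, ran from 91.1 at 11 AM to 130.0 at 3 PM, and the antisense gene NDUFB2-AS1 from 73.7 at 3 AM to 199 at 3 PM. In neither subunit did the highest array reach 1.5 times the lowest. A 24-h cosine had an R2 of 0.975 in NDUFB6, with a peak at 8.17 h, and of 0.0868 in NDUFA5. Their unadjusted p was 0.231 and 0.908, by limma over all probe sets that name 1 gene.

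**Figure D2:**
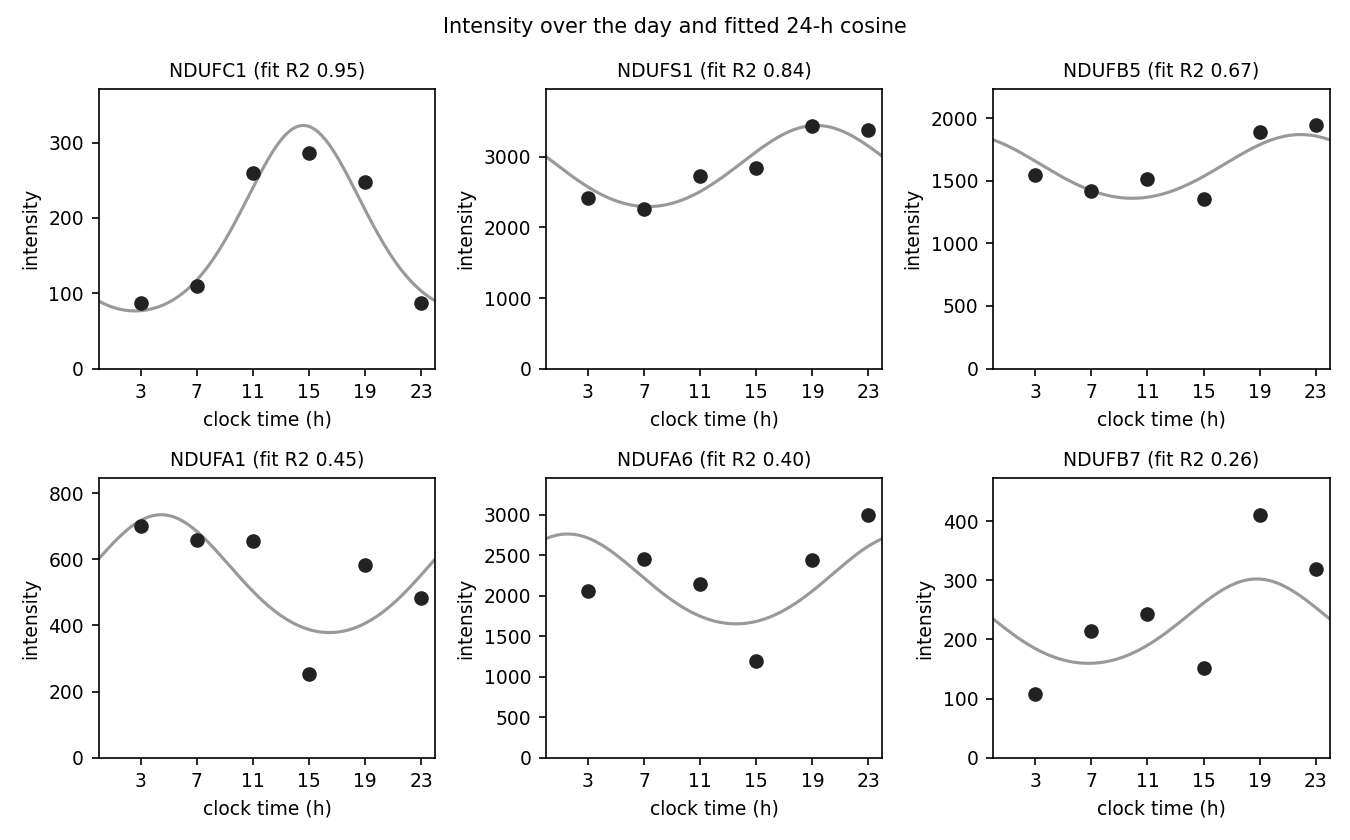
Intensity (y axis, linear, from 0) against clock time in hours for 6 complex I genes, with 1 point per array and the fitted 24-h cosine in grey. NDUFC1 follows its curve (R2 0.945), NDUFS1 and NDUFB5 are highest at 7 PM and 11 PM, and NDUFA1 and NDUFA6 have a single low array at 3 PM that the curve misses.

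In the N module, where NADH is oxidised, 0 of 8 genes passed the unadjusted threshold, and the log2 peak-to-trough difference ran from 0.09 to 0.74. NDUFS1, the core subunit that carries several iron-sulphur clusters, had the smallest cosine p after NDUFC1, though not the next widest change. Its intensity was 2414 at 3 AM, 2263 at 7 AM, 2733 at 11 AM, 2845 at 3 PM, 3437 at 7 PM and 3388 at 11 PM. It was lowest in the 2 oldest animals and highest in the youngest, at 7 PM. The fitted peak lay at 19.3 h, with a log2 difference to the trough of 0.59 ± 0.26 (SE, n = 6, unadjusted p = 0.149 by limma). A straight line on age had an R2 of 0.888 and the cosine, with 1 more term, 0.845.

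NDUFV1, which binds NADH and the flavin, ran from 1017 at 3 PM to 1335 at 11 AM. NDUFV2, an iron-sulphur core subunit, ran from 1854.5 at 3 PM to 2879 at 7 AM. NDUFA2, a small accessory subunit, ran from 2399.5 at 3 AM to 3220 at 11 PM, and its fitted peak and trough were 0.09 apart (log2), the smallest such difference of the 26. The accessory subunit NDUFS4 ran from 521 at 3 PM to 743 at 7 PM, and NDUFA7 lay between 166 and 221 on 5 arrays and at 323 at 7 PM.

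NDUFA6, an accessory subunit that holds an acyl carrier protein in the complex, measured 2065 at 3 AM, 2451 at 7 AM, 2151 at 11 AM, 1195 at 3 PM, 2441 at 7 PM and 3000 at 11 PM. The 3 PM array was the low one, and the log2 peak-to-trough difference of 0.74 ± 0.41 (SE, n = 6, unadjusted p = 0.258 by limma) became 0.27 without it and 1.24 without 3 AM. A second NDUFA6 probe set was highest at 3 PM, at 381, and lowest at 11 PM, at 217, so the probe sets of this gene ran opposite to each other on those arrays. NDUFS6, an accessory subunit that binds zinc, ranged most widely in the module, with 99.2 at 3 AM, 182.5 at 7 AM, 229 at 11 AM, 72.7 at 3 PM, 250 at 7 PM and 207 at 11 PM. Its low arrays were 3 AM and 3 PM, those with low hybridisation controls, and the part of the controls in this was not tested.

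In the Q module, where ubiquinone is reduced, 0 of the 3 tested genes passed. NDUFS7, a core subunit that carries the iron-sulphur cluster next to ubiquinone, was at 1126 at 3 AM, 1083 at 7 AM, 1068 at 11 AM, 1070 at 3 PM, 1289.5 at 7 PM and 1286 at 11 PM. Only 7 PM and 11 PM stood above a level shared by the other 4 arrays (log2 peak-to-trough 0.30 ± 0.25 SE, n = 6, unadjusted p = 0.513 by limma). NDUFS3, another core subunit, ran from 1131 at 3 PM to 1748.5 at 7 PM, and the accessory subunit NDUFA9 from 496 at 11 AM to 688 at 3 AM.

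In the proximal membrane arm, NDUFC1 was the 1 of 6 that passed the unadjusted threshold. NDUFA1, a small accessory subunit, measured 702 at 3 AM, 658 at 7 AM, 654 at 11 AM, 254 at 3 PM, 583 at 7 PM and 482 at 11 PM. The 3 PM array stood below all others, and the fitted log2 difference was 0.95 ± 0.45 (SE, n = 6, unadjusted p = 0.175 by limma), 0.36 without 3 PM and 1.56 without 7 PM. Without 7 PM it passed the unadjusted threshold (unadjusted p = 0.0307 by limma). NDUFA8, an accessory subunit of the intermembrane space side, was at 728 at 3 AM, 757 at 7 AM, 617 at 11 AM, 762 at 3 PM, 915 at 7 PM and 827.5 at 11 PM. It was highest at 7 PM and 11 PM and lowest at 11 AM (log2 0.40 ± 0.27 SE, n = 6, unadjusted p = 0.373 by limma).

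The other 3 genes of that arm differed among themselves. NDUFA13, also known as GRIM-19, ran from 257 at 3 AM to 570 at 11 PM. NDUFA10 ran from 547 at 7 AM to 752 at 11 AM. NDUFA3 was the narrowest of the 26, from 369 at 7 PM to 441 at 3 PM, and unlike most members was lower at 7 PM and 11 PM than on any other array.

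In the distal membrane arm, 0 of 9 genes passed the unadjusted threshold. NDUFB5, an accessory subunit, was at 1544 at 3 AM, 1418 at 7 AM, 1515 at 11 AM, 1350.5 at 3 PM, 1888.5 at 7 PM and 1941.5 at 11 PM. The 7 PM and 11 PM arrays were again the high ones, with a fitted peak at 21.9 h (log2 0.46 ± 0.27 SE, n = 6, unadjusted p = 0.302 by limma). NDUFB7, an accessory subunit on the intermembrane space side, measured 108 at 3 AM, 215 at 7 AM, 242.5 at 11 AM, 152 at 3 PM, 411 at 7 PM and 320 at 11 PM. Again 3 AM and 3 PM were low and 7 PM and 11 PM high (log2 0.92 ± 0.61 SE, n = 6, unadjusted p = 0.377 by limma). Without 3 PM the difference was 1.72 and passed the unadjusted threshold (unadjusted p = 0.0422 by limma), while without 7 PM it was 0.33 (unadjusted p = 0.912 by limma). Its second probe set was at 10.4 to 97.3, with the highest value at 11 AM and the lowest at 11 PM, so it did not follow the first.

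NDUFB2, an accessory subunit, measured 1537 at 3 AM, 2143 at 7 AM, 1606 at 11 AM, 1390 at 3 PM, 1486 at 7 PM and 1634 at 11 PM. The 7 AM array was the high one, and the fitted peak lay at 6.06 h (log2 0.40 ± 0.28 SE, n = 6, unadjusted p = 0.407 by limma). Without 7 AM the log2 difference was 0.15, with a peak at 4.24 h. Its second probe set was lowest at 7 AM, at 79.6, against 112.5 to 202 elsewhere. NDUFAB1, the mitochondrial acyl carrier protein, which also serves fatty acid synthesis, ran from 1335 at 3 PM to 1601 at 3 AM. NDUFB1 ran from 3872 at 3 PM to 5589 at 7 PM, NDUFB8 from 1682 at 3 AM to 2799 at 7 PM, and NDUFB4 from 291 at 7 AM to 439 at 11 AM. NDUFB3 had a single low array, with 85.2 at 7 AM against 140 to 286 elsewhere.

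The widest ranges lay among members of low signal, though not in all of them, since NDUFA3 is in that class. The 8 members with a mean intensity under 500 had a median log2 difference between highest and lowest array of 1.43. For all 4086 tested genes at that level it was 0.83. For the 6 members from 500 to 1000 it was 0.54, against 0.69 for 1722 genes. For the 12 members at 1000 and over, this difference was 0.57, against 0.63 for 1356 genes. Under 500 the median member thus spanned more than the median gene of that level, and in the brighter classes less; these differences were not tested.

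Many members shared their high and low arrays. At 7 PM 19 of 26 lay above their own mean, 73.1% against 54.1% of all genes tested, and at 11 PM also 19, against 48.9%. In 15 members, 57.7%, both arrays were above the mean, against 25.2% of all genes. At 3 PM only 7 of 26 were above, against 55.2% of all genes, and 11 of 26 had their lowest value there, 42.3% against 15.5% of all genes. Under quantile normalization 19 (73.1%) were above at 7 PM, 17 (65.4%) at 11 PM and 8 (30.8%) at 3 PM. The shares of all genes were then 53.2%, 49.9% and 54.2%. Centring on the array median gave 19 (73.1%), 20 (76.9%) and 4 (15.4%), against 53.1%, 57.4% and 42.7% of all genes. By module, 7 of 8 N module genes were above their mean at 7 PM and 7 at 11 PM, while 1 was above at 3 PM. For the distal arm the numbers were 5 and 6 of 9, with 2 at 3 PM, and for the Q module 2 and 3 of 3, with 1 at 3 PM. The proximal arm had 5 of 6 above at 7 PM but 3 at 11 PM and 3 at 3 PM.

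Other values moved with these arrays. All 10 adrenal cortex markers tested were above their own mean at 7 PM and at 11 PM, and 3 were at 3 PM and 1 at 3 AM. Their intensities summed to 94672 (7 PM) and 90016 (11 PM), and to between 60371 and 75227 on the rest. Bright probe sets weigh most in such a sum: CYP17A1 alone was 40394 at 7 PM. Chromaffin markers were above their mean in 9 of 11 tested genes at 7 AM and 1 of 11 at 11 PM. The 13 chromaffin markers on the array summed to 17286 at 3 AM and up to 42845 at 7 AM. The 7 adipocyte markers on the array summed to 5630 at 3 AM and 1712 to 4296 on the other arrays. The 7 PM, 11 PM and 3 PM animals were the 3 youngest, and age cannot be told apart from clock time. The 3 AM and 3 PM arrays, where fewest members were above their mean, had the lowest hybridisation controls. The part of cell makeup, age and the controls in the shared pattern was not tested.

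**Figure D3:**
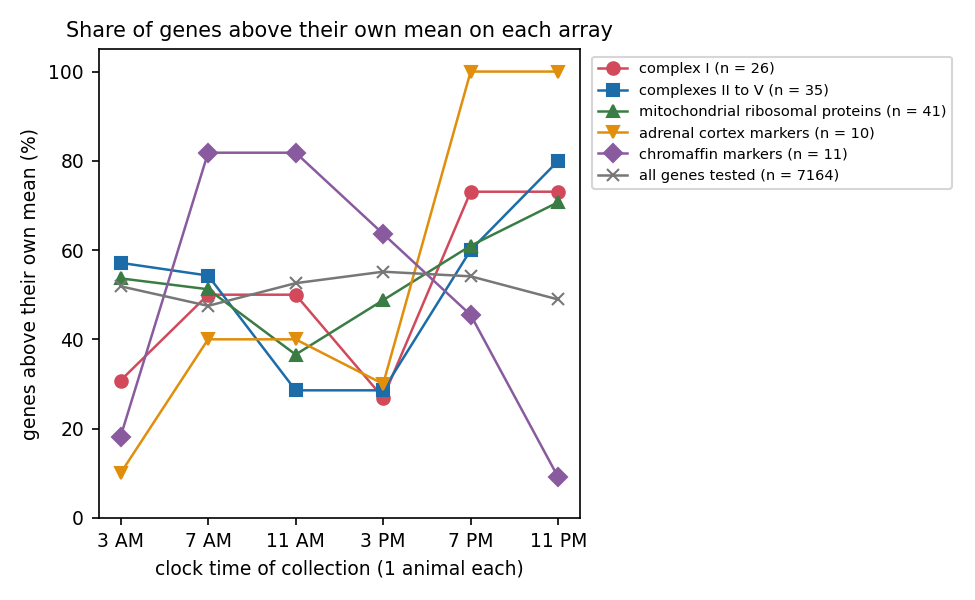
Share of genes (y axis, percent) above their own mean on each array, by clock time, for the complex I genes, 2 other mitochondrial lists, markers of the adrenal cortex and of chromaffin cells, and all genes tested; n is the number of genes, and each clock time is 1 animal. Complex I genes reach 73.1% at 7 PM and 11 PM and 26.9% at 3 PM, all cortex markers are above their mean at 7 PM and 11 PM, and all genes together stay between 47.5% and 55.2%.

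The pattern was set beside that of the other mitochondrial lists. Among 35 tested genes of complexes II to V, the rest of the respiratory chain and ATP synthase, 21 were above their mean at 7 PM, 28 at 11 PM and 10 at 3 PM. Among 41 mitochondrial ribosomal protein genes these numbers were 25, 29 and 20. At 3 AM 8 of 26 complex I genes were above their mean, against 20 of 35 and 22 of 41 in these lists; the difference between lists was not tested. A 24-h cosine passed an unadjusted p of 0.05 in 3 of the 35, or 8.57%, against 5.56% of all genes tested. These were led by ATP5MC2, a subunit of the proton ring of ATP synthase (peak 3.15 times the trough, at 7.75 h), and ATP5F1C (1.81 times, 21.6 h). In the ribosomal list 1 of the 41 passed, MRPS16 (3.48 times, 1.16 h), and MRPL35 had the next smallest p (unadjusted p = 0.0756 by limma).

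Genes that build complex I or regulate mitochondrial gene expression gave no cosine call, where 5.56% of all genes tested passed the unadjusted threshold. In lists this short, 0 calls is near that share. Of 19 assembly factors listed, 12 were on the array and 7 were tested, and 0 passed the unadjusted threshold for a cosine. TMEM70 and DMAC2 had the smallest p (peaks 1.68 and 1.33 times the trough, unadjusted p = 0.113 and 0.366 by limma). Among 14 regulators of mitochondrial gene expression, 11 were tested and 0 passed. POLRMT, the mitochondrial RNA polymerase, and PPARA, a nuclear receptor for fatty acids, had the smallest p (0.0962 and 0.140 by limma, unadjusted).

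Between the daytime arrays (7 AM, 11 AM and 3 PM) and the night arrays (7 PM, 11 PM and 3 AM), most complex I genes were slightly lower by day. Of the 26, 20 were lower, 76.9% against 50.9% of all genes tested, and 6 were higher. The median log2 difference was -0.17 over the members and -0.00426 over all genes, where the median standard error of a member was 0.21. Of single members, 0 of 26 passed an unadjusted p of 0.05 by limma, against 5.39% of all genes, and 0 passed after adjustment, as did 0% of all genes. With 3 arrays against 3, an exact test cannot go below 0.1. Across the same arrays, 29 of 35 genes of complexes II to V (82.9%) and 30 of 41 mitochondrial ribosomal protein genes (73.2%) were lower by day. So were 9 of 10 cortex markers (median log2 difference -0.23) and 4 of 4 adipocyte markers (-0.99), while 11 of 11 chromaffin markers were higher (0.59). The part of cell makeup in the daytime difference was not tested. The complex I members lower by day were 5 of 8 in the N module, 3 of 3 in the Q module, 4 of 6 in the proximal arm and 8 of 9 in the distal arm. The members' median difference came to -0.07 without the 3 PM array, -0.06 without 7 PM and -0.10 without 11 PM. In these fits 16, 16 and 18 members were lower, or 61.5%, 61.5% and 69.2%, against 52.5%, 49.6% and 52.1% of all genes. With age as a covariate the median difference was -0.10. With the day taken as 11 AM to 7 PM it was -0.03, with 15 lower, 57.7% against 45.2% of all genes.

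The 4 members with the smallest p of this comparison were NDUFB5, NDUFC1, NDUFA6 and NDUFS7. NDUFB5 was lower by day by a log2 difference of -0.32 ± 0.19 (SE, n = 3 per group, unadjusted p = 0.120 by limma), with 1350.5 to 1515 by day and 1544 to 1941.5 by night. NDUFS7 differed by -0.20 ± 0.17 (unadjusted p = 0.289 by limma), with 1068 to 1083 by day and 1126 to 1289.5 by night. In these 2 members day and night arrays did not overlap, being lower by day, against 5.26% of all genes, and 0 members were higher without overlap, against 5.61%. NDUFA6 differed by -0.42 ± 0.29 (unadjusted p = 0.186 by limma), and by -0.62 to -0.11 with 1 array left out, the smallest difference being without 3 PM. The second NDUFA6 probe set differed by 0.11, so it was higher by day. NDUFC1 had the largest difference of the members higher by day, 0.70 ± 0.48 (unadjusted p = 0.180 by limma), with its low 7 AM value among the daytime arrays and its high 7 PM value among the night arrays. Without the 7 AM array it became 1.13 and without 7 PM 1.195, both past the unadjusted threshold (unadjusted p = 0.0364 and 0.0190 by limma). Leaving out 3 AM or 3 PM gave 0.44, 11 PM 0.45, and both 3 AM and 3 PM 0.19 (unadjusted p = 0.758 by limma for the last). NDUFB7 differed by -0.28 ± 0.45 (unadjusted p = 0.547 by limma). Without the 3 AM array this was -0.86 and passed the unadjusted threshold (unadjusted p = 0.0131 by limma), and without 7 PM it turned to 0.10. The second NDUFB7 probe set, below the level filter, differed by 1.38 with all arrays.

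**Figure D4:**
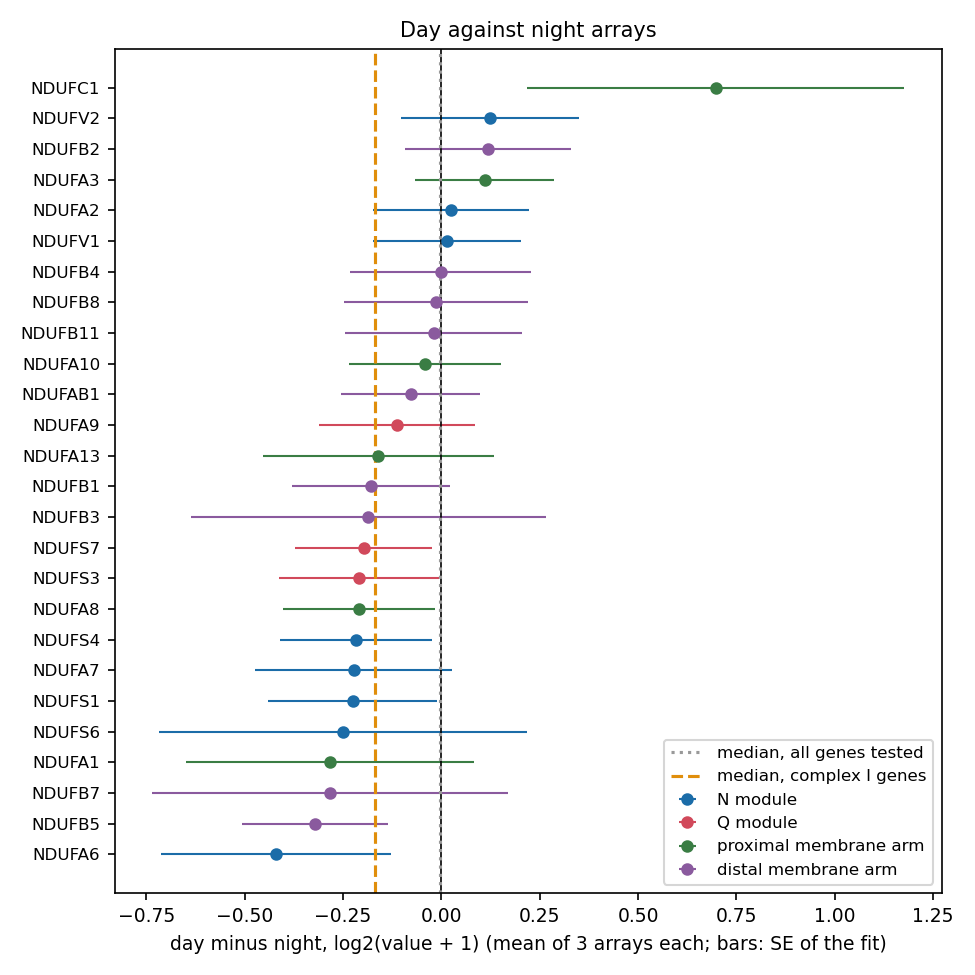
Difference between the daytime and night arrays for each of the 26 genes (x axis, log2(value + 1), mean of 3 arrays minus mean of 3), with points coloured by module and bars giving the standard error of the limma fit. In all, 20 points lie below 0 with the median at -0.17 (dashed line), the median of all genes is near 0 (dotted line), and NDUFC1 stands alone at 0.70.

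A second probe set that passed the level filter on its own was present for NDUFA6 and, with 3 probe sets in all, for NDUFB8. For NDUFB8 the fitted log2 difference from trough to peak was 0.22 in the representing probe set and 0.18 and 0.09 in the others, all small beside that of NDUFC1. The second probe sets of NDUFA2, NDUFA5, NDUFB2 and NDUFB7 had mean intensities of 91.4, 48.6, 144 and 49.4, below the filter. Their fitted log2 differences were 1.09, 3.77, 0.89 and 2.72, against 2.06 for NDUFC1. In a limma fit over all probe sets that name 1 gene, their unadjusted p was 0.594, 0.109, 0.245 and 0.0104, against 0.00429 for NDUFC1. Probe sets that name several genes included 1 shared by NDUFC2 and a read-through gene, at 820 at 7 PM to 1254 at 3 AM. The brighter of the probe sets shared by NDUFS8 and 2 microRNA genes ran from 951.5 at 3 AM to 1358 at 11 PM. That shared by NDUFS5 and RPL10 ran from 419 at 7 AM to 601 at 11 AM.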

How the data were processed

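The deposited table gives each array 1 intensity for each probe set, not logged, from 0.1 to 40394. They were already scaled by the authors, as read from the values: the 2% trimmed mean is 325 on each array. The sources used here do not name the summary software. The table holds 22283 probe sets, 68 of them controls; 19065 name 1 gene in the platform annotation, 1043 name several and 2107 name none.

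Values were converted to log2(value + 1), and fold changes are on that scale, which understates changes of low genes. Genes whose mean reached 7.30, the median of non-control probe sets, were tested. A 24-h cosine and the contrast of daytime against night arrays were fitted to all 7164 genes with limma 3.58.1 in R 4.3.3, and p-values were adjusted (Benjamini-Hochberg) over these genes, at a threshold of 0.05. The cosine leaves 3 residual degrees of freedom and the prior adds 4.60. The order test recomputed R2 over 60 circular orders. Fits were checked on simulated data.

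Values on every array are given for the 8 members with the smallest p of the cosine and the 4 of the contrast, and for NDUFS6, chosen after its values were seen and whose own values were not followed under the alternatives. From each other mitochondrial list the 2 genes with the smallest p are named. Members and lists were chosen with earlier results of these data known. Alternatives were other filters, pseudocount, scaling, probe sets, prior, test, age, day split and arrays left out. The number of arrays limits precision. Each p-value sets a fitted change against the residual spread of single animals, which limma moderates with that of all genes tested. This spread mixes differences between animals and ages, departures from the fitted curve and, in the contrast, differences between clock times within a group.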

Additional observations from a re-analysis of the deposited data

How the results depend on the processing

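No member passed adjustment over all genes in either comparison under any alternative run. At an unadjusted p under 0.05 the cosine called 1 member, 0 with the stricter filter, which leaves NDUFC1 untested, and 1 to 2 when single arrays were left out: NDUFB7 joined without 3 PM and NDUFA1 without 7 PM. The daytime contrast called 0 members, 2 with the ordinary test (NDUFB5 and NDUFS7), 1 with age as a covariate (NDUFC1), 1 without the 3 AM and 3 PM arrays (NDUFB7), 1 with the day taken as 11 AM to 7 PM (NDUFC1), and 0 to 1 when single arrays were left out (NDUFB7 without 3 AM, NDUFC1 without 7 AM and without 7 PM). Over all genes the cosine called 5.56%, 6.41% with the stricter filter and 5.05% to 7.48% without single arrays. Of 7164 genes the contrast called 386, and in the same order of alternatives 389, 404, 434 and 388. Without single arrays it called 350 to 439. The counts among the 26 members are near these shares. The median log2 peak-to-trough difference was 0.92 with age as a covariate, against 0.30; without single arrays it ran from 0.32 to 0.47. In the fit with age the median of all genes was 1.18, against 0.43 without it. A cosine fitted to age had an R2 of 0.947, so this fit cannot separate age from clock time. The median daytime difference stayed below 0 throughout, and without single arrays ran from -0.17 to -0.06. The number of members lower by day, added after the data were seen, ran from 16 to 21 when single arrays were left out. That is 61.5% to 80.8%, against 47.4% to 52.5% of all genes. For the 9 members with the smallest p in either comparison, 283 refits kept the side of the unadjusted threshold and 10 gained it; most were past it in neither fit, so this does not measure stability. Apart from the untested gene, the cause was not tested. No paired analysis was possible because a single animal was collected at each hour. The table holds no detection call, so how far dim members such as NDUFC1 and NDUFS6 lie above background is unknown.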
